A study of Homo sapiens with 12 samples.

Results

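The combined protein preparation S100A8/S100A9 was compared with S100A9 alone by RNA sequencing of HK-2, a human kidney line derived from proximal tubule epithelium. The comparison rests on the 6 libraries whose labels name these treatments, 3 in each group, out of 12 in the study. The other libraries were 3 with recombinant S100A8 and 3 with phosphate-buffered saline (PBS), and they are set beside the results as reference groups. All groups were wild-type HK-2 cells kept in DMEM with fetal bovine serum for 48 h, and each recombinant protein is labelled with a concentration of 5 mg/mL, a unit that could not be checked. The labels do not give the amount of either subunit in the combined preparation, so the presence of S100A8 and a different amount of S100A9 cannot be told apart. HK-2 is 1 line, immortalised with papillomavirus oncogenes. Whether libraries of a group came from separate cultures is not stated, so the spread behind every p-value is that between libraries and may be technical.

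S100A8 and S100A9 are small calcium-binding proteins that neutrophils and monocytes hold in large amounts and release at sites of injury. The subunits pair into calprotectin, which binds zinc and manganese and thereby limits microbial growth. Outside the cell they are known as danger signals that act on the receptors TLR4 and RAGE (gene AGER), and in kidney epithelium such signals can switch on genes of innate defence through the transcription factor NF-kB. Typical products of that response are chemokines that recruit neutrophils and T cells, acute-phase proteins, complement components and the iron-siderophore binder lipocalin 2.

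Library totals ranged from 15882193 to 20748334 counts, and from 16736533 to 20748334 in the 6 libraries compared. A count of 0 allows up to 3 counts, which is 0.145 to 0.179 CPM (counts scaled to library size) in those 6, for counting error only. The cells themselves made no detectable transcript of the added proteins, since the genes S100A8 and S100A9 were at 0 counts in each of the 12 libraries. In bulk RNA, fewer cells that express a gene and less of its RNA per cell cannot be told apart. Epithelial genes of the kidney were present. KRT18 was at 233 and 236 CPM in the S100A9 and S100A8/S100A9 groups and PAX8 at 321 and 333 CPM. Some genes of the mature proximal tubule were close to 0 (LRP2 at 0.0549 and 0.101 CPM, AQP1 at 0.110 and 0.204 CPM). Others were not, with GGT1 at 34.0 and 30.2 CPM. Of 32 proximal tubule identity genes 18 had enough counts to be tested. The leukocyte list had counts for 10 of 15 genes, with a summed level of 91.0 to 114 CPM with S100A9 and 92.0 to 104 CPM with S100A8/S100A9; most of it was CD68, while PTPRC was at 0.0171 and 0.0162 CPM and TYROBP, MS4A1, FCGR3A and AIF1 were among those at 0. Endothelial markers (9 of 10 with counts, EMCN at 0) summed to 5.76 to 7.02 CPM with S100A9 and 6.54 to 7.47 CPM with S100A8/S100A9. The fibroblast and pericyte list, of which 9 of 10 genes had counts and COL1A2 was at 0, summed to 110.0 to 122 CPM with S100A9 and 125 to 143 CPM with S100A8/S100A9. Most of it was LUM, with means of 81.6 and 94.4 CPM, and RGS5, with 25.8 and 29.3 CPM. PDGFRB was at 1.00 and 1.31 CPM and PDGFRA at 0 and 0.0199 CPM.

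The genes with the largest differences that passed were genes of innate defence, and they were lower with the combined preparation. Of 13512 genes tested, 30 were lower with S100A8/S100A9 than with S100A9 alone (0.222% of genes tested) and 4 were higher (0.0296%), by the quasi-likelihood test of edgeR (adjusted p under 0.05, Benjamini-Hochberg, over all genes). The lower genes included chemokines and cytokines (CCL20, CXCL8, CXCL2, CSF2, IL6), acute-phase and complement genes (LCN2, SAA1, SAA2, C3, CFB), the mitochondrial superoxide dismutase SOD2 and the epithelial factor ELF3. The higher genes were the keratin gene KRT7, the surface glycoprotein gene CD24, the translation initiation factor gene EIF5 and the helix-loop-helix inhibitor gene ID2. All 34 encode proteins. Sizes were uneven: 7 of the 30 were lower by at least 2-fold, 6 by 1.5- to 2-fold and 17 by less than 1.5-fold, and the higher genes lay between 0.20 and 0.32 on the log2 scale. Across all genes the median log2 difference was -0.00, 50.6% of genes lay below 0 and 91.4% lay within 0.25 of 0.

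**Figure D1:**
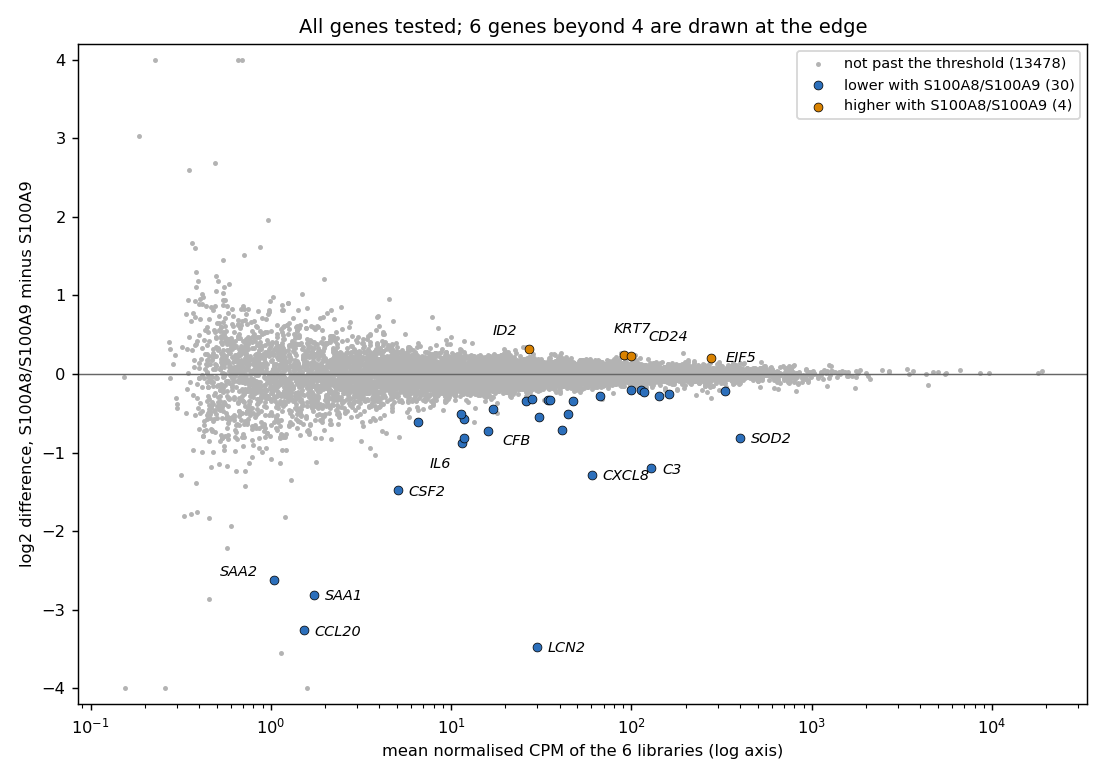
Each point is 1 of the genes tested, placed by its mean normalised CPM over the 6 libraries (log axis) and its log2 difference, S100A8/S100A9 minus S100A9. Blue points are the 30 genes lower with S100A8/S100A9 and orange points the 4 that were higher; LCN2 and CCL20 lie farthest below 0 among them, while the orange points lie between 0.20 and 0.32.

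In all 34 genes the 3 libraries of one arm lay beyond the 3 of the other, a separation that 6.53% of all tested genes showed with S100A8/S100A9 lower and 5.94% with it higher. The S100A9 libraries were the ones that stood apart from the rest of the study: for 27 of the 30 lower genes all 3 S100A9 libraries lay above all 9 others, which 1.15% of tested genes did, and for KRT7, CD24 and ID2 they lay below all 9 others, which 0.784% did. The exceptions were COL7A1, P4HA2, ALS2CL and EIF5. This count uses the same S100A9 libraries that chose the genes and is a description.

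The sequence before transcription starts of these genes is shown because many of them moved together. It lies before a RefSeq start and can fall inside the GENCODE bounds of the gene, as for CCL20, PDZK1IP1, IL6 and LCN2. RefSeq promoter windows (build GRCh38.p14) were found for 26 of the 30 lower genes and 3 of the 4 higher ones. The 250 bases before each transcription start were searched on both strands for 3 motifs. These were the kappaB motif GGGRNNYYCC bound by NF-kB, the AP-1 motif TGANTCA and the C/EBP motif TTGCNNAA. R stands for A or G, Y for C or T and N for any base. Sites that depart from these letters were not counted. A kappaB match was present in at least 1 window of 14 of the 26 lower genes (53.9%), against 15.7% of 10832 tested genes with a window and 11.8% of all 27305 symbols in the table. The AP-1 motif was in 3 of 26 (11.5%, against 6.26% of tested genes and 8.06% of all symbols) and the C/EBP motif in 6 of 26 (23.1%, against 8.73% and 11.03%). Of the 3 higher genes with a window, CD24 and ID2 held a kappaB match (66.7%) and EIF5 an AP-1 match (33.3%). A kappaB match was thus not confined to the lower genes. A match is a run of letters and does not show binding, and no match says only that these letters are not in the window. SOD2, CSF2 and ZC3H12A, all lower, had a window with none of these matches. The examples printed here were picked by hand and include none of those genes. The stretches below run 5′ to 3′ on the strand of the gene, leave out bases that GENCODE release 29 marks as exons, and carry the matches in capitals. They show CCL20 (chr2:227813592-227813821, plus strand) and PDZK1IP1 (chr1:47190056-47190286, minus strand) with a kappaB match alone, IL6 (chr7:22726950-22727146, plus strand) with a C/EBP match followed by a kappaB match, LCN2 (chr9:128149265-128149440, plus strand) with kappaB, C/EBP and AP-1 matches in that order, CXCL8 (chr4:73740319-73740505, plus strand) with an AP-1 match alone, and COL7A1 (chr3:48595330-48595579, minus strand) with 3 kappaB matches, of which 2 overlap.
CCL20: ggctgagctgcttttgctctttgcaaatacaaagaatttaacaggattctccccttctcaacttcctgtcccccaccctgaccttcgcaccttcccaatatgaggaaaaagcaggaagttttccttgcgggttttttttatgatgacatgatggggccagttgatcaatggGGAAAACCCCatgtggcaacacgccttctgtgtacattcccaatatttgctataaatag
PDZK1IP1: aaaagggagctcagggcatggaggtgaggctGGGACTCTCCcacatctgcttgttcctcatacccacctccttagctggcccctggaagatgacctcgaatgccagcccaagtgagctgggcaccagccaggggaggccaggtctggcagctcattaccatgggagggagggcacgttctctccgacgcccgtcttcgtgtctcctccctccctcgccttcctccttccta
IL6: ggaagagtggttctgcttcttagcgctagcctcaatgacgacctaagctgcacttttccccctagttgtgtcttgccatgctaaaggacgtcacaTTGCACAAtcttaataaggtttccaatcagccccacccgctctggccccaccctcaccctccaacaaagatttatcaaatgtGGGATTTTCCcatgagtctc
LCN2: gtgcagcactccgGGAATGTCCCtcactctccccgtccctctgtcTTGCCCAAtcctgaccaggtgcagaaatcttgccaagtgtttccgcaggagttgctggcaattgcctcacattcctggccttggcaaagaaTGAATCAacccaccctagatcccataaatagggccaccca
CXCL8: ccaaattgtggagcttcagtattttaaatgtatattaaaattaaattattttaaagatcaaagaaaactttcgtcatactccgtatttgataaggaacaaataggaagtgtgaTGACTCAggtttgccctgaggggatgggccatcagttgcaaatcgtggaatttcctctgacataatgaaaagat
COL7A1: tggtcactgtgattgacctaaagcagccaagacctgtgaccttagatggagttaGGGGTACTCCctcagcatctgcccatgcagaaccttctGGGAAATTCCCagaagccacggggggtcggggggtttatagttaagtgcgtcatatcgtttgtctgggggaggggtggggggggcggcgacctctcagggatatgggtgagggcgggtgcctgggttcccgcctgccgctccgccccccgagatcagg

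Secreted cytokines and chemokines were lower with the combined preparation where they differed. Of 23 tested genes of this list 5 were lower, 0 were higher and 18 did not pass, where 0.222% of all genes tested were lower. The list median was -0.11 on the log2 scale, against -0.00 for all genes. This list and those below were chosen with earlier results of these data known, so their counts are descriptions. CCL20 (ENSG00000115009, chromosome 2 from 227805739 to 227817564; coordinates are of GENCODE release 29 on GRCh38), which encodes the ligand of CCR6 and attracts T helper cells and dendritic cells, stood at 2.11, 3.24 and 2.96 CPM with S100A9 and 0.340, 0.299 and 0.209 CPM with S100A8/S100A9. The lowest S100A9 library was above the highest S100A8/S100A9 library, with counts of 36, 63 and 54 against 7, 5 and 4, and the log2 difference was -3.26 (95% interval -3.997 to -2.53, adjusted p = 5.0e-06). CXCL8 (ENSG00000169429, chromosome 4 from 73740506 to 73743716), which encodes the neutrophil attractant interleukin 8, had levels of 81.0, 99.5 and 75.4 CPM with S100A9 and 37.8, 36.6 and 30.9 CPM with S100A8/S100A9. Its groups did not overlap, the log2 difference was -1.28 (95% interval -1.49 to -1.08, adjusted p = 5.0e-06), and the promoter shown above holds the AP-1 match. CXCL2 (ENSG00000081041, chromosome 4 from 74097035 to 74099293), which encodes another neutrophil attractant, was at 12.8, 17.3 and 15.04 CPM with S100A9 and 6.94, 11.6 and 7.38 CPM with S100A8/S100A9. Its second S100A8/S100A9 library lay close to the lowest S100A9 library, and the difference of -0.82 (95% interval -1.16 to -0.48, adjusted p = 0.040) was not past the threshold in the fit on the 6 libraries alone (adjusted p = 0.26).

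CSF2 (ENSG00000164400, chromosome 5 from 132073790 to 132076170) encodes the growth factor GM-CSF, which expands and activates granulocytes and macrophages. It measured 7.67, 7.72 and 7.03 CPM with S100A9 and 2.86, 2.45 and 2.67 CPM with S100A8/S100A9, so that every S100A9 library lay well above every library of the combined arm, and the log2 difference was -1.48 (95% interval -1.82 to -1.14, adjusted p = 5.0e-06). IL6 (ENSG00000136244, chromosome 7 from 22725884 to 22732002), the gene of the cytokine that drives the acute-phase response, showed 15.9, 15.5 and 13.0 CPM with S100A9 and 7.71, 9.57 and 6.96 CPM with S100A8/S100A9. Here the S100A8/S100A9 libraries were lower by 1.84-fold, a log2 difference of -0.88 (95% interval -1.14 to -0.62, adjusted p = 3.3e-04), and the window printed above holds its kappaB and C/EBP matches. CXCL5, the gene of another CXC chemokine for neutrophils, had separate groups as well, at 5.91, 7.51 and 6.20 CPM with S100A9 and 3.35, 5.15 and 2.88 CPM with S100A8/S100A9. Its difference of -0.80 (95% interval -1.19 to -0.42, adjusted p = 0.071) did not pass. Receptor genes gave no call: of 23 tested cytokine receptor genes 0 passed edgeR, DESeq2 or limma, and the median difference was -0.01. By edgeR 3 of the 23 had an unadjusted p under 0.05, a larger share than the 7.15% of all genes tested, on few genes.

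**Figure D2:**
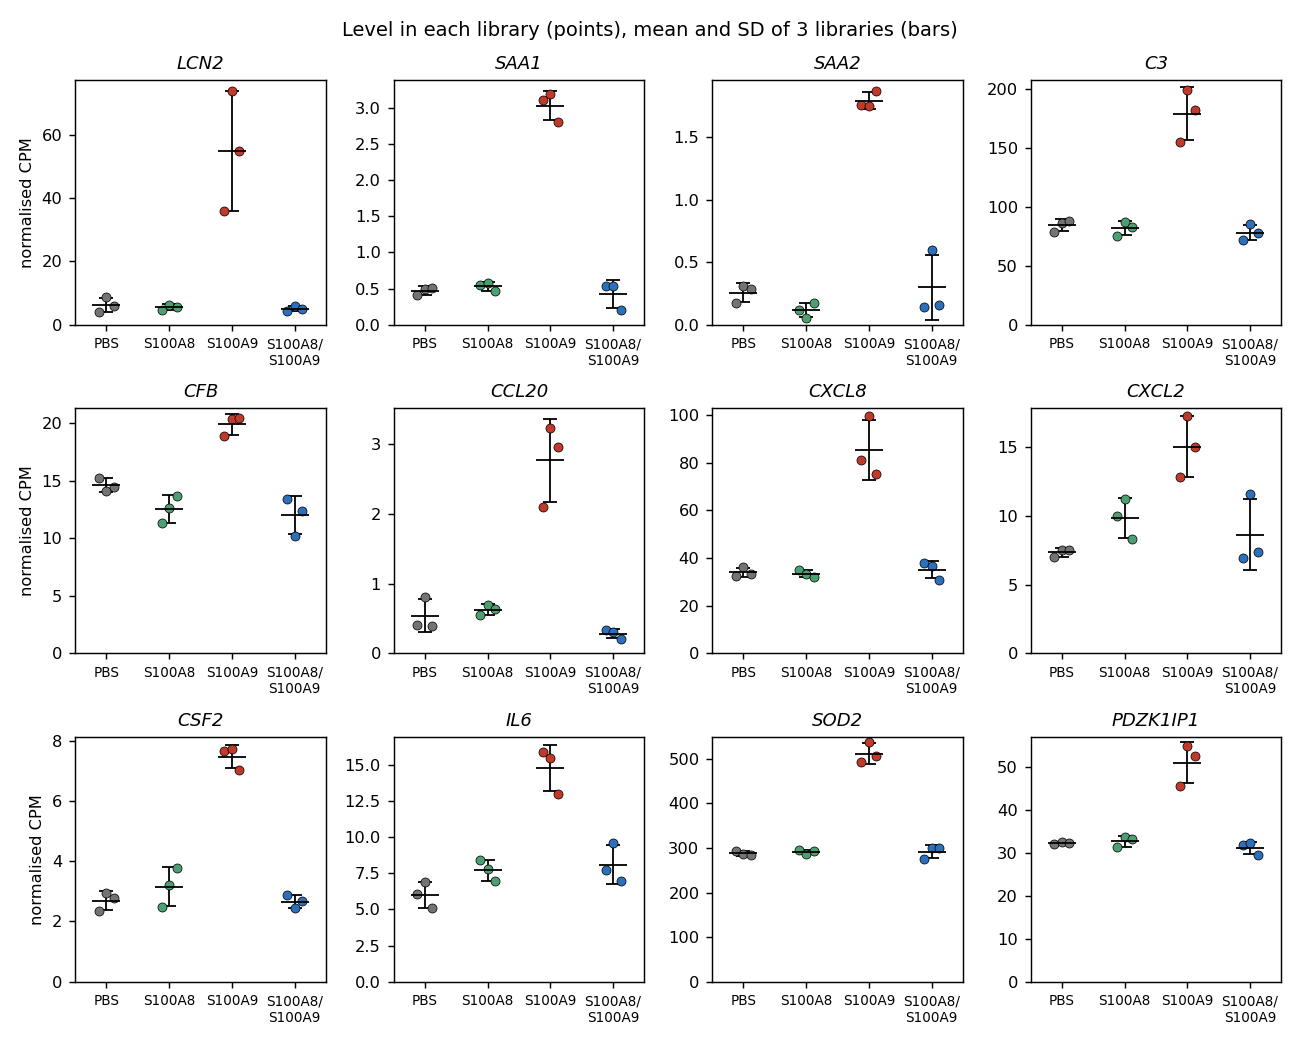
Normalised CPM of 12 lower genes in each of the 12 libraries (points), with the mean and SD of 3 libraries (bars), for PBS, S100A8, S100A9 and S100A8/S100A9; each panel starts at 0. In every panel the S100A9 points lie above the points of the other groups, and the S100A8/S100A9 mean lies nearer to the PBS mean than to the S100A9 mean.

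Acute-phase and complement genes held the largest difference among the genes that passed, that of LCN2. Of 20 tested members 5 were lower, 0 were higher and 15 did not pass, with a list median of -0.09, where 0.222% of all genes tested were lower. LCN2 (ENSG00000148346, chromosome 9 from 128149071 to 128153455) encodes lipocalin 2, also called NGAL, which withholds iron from bacteria and is used as a marker of tubular injury. Its levels were 36.0, 73.8 and 54.9 CPM with S100A9 and 4.22, 5.80 and 4.97 CPM with S100A8/S100A9. Even the lowest S100A9 library was over 6 times the highest of the combined arm, although the S100A9 libraries themselves differed by about 2-fold, and the log2 difference was -3.47 (95% interval -4.23 to -2.71, adjusted p = 0.0046). LCN2 was at adjusted p = 0.19 in the fit on the 6 libraries alone and at adjusted p = 0.050 without S100A8/S100A9 replicate 1, which was just over the threshold.

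SAA1 (ENSG00000173432, chromosome 11 from 18266174 to 18269977) and SAA2 (ENSG00000134339, chromosome 11 from 18239223 to 18248643) encode serum amyloid A proteins, which the liver and inflamed epithelia secrete. SAA1 was at 3.10, 3.19 and 2.80 CPM with S100A9 and 0.534, 0.539 and 0.209 CPM with S100A8/S100A9. SAA2 was at 1.76, 1.75 and 1.87 CPM with S100A9 and 0.146, 0.598 and 0.157 CPM with S100A8/S100A9. The pair is near-identical and reads can be split between the genes, so their counts were also summed, an alternative chosen after seeing the data. Summed, they stood at 4.86, 4.94 and 4.67 CPM with S100A9 and 0.679, 1.14 and 0.367 CPM with S100A8/S100A9, a log2 difference of -2.75 (95% interval -3.31 to -2.18, adjusted p = 8.9e-07). Apart, the differences were -2.81 (95% interval -3.46 to -2.16) for SAA1 and -2.62 (95% interval -3.47 to -1.76) for SAA2.

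C3 (ENSG00000125730, chromosome 19 from 6677704 to 6730562), the central component on which all complement pathways converge, was at 155, 199.7 and 183 CPM with S100A9 and 72.0, 85.4 and 77.8 CPM with S100A8/S100A9. Its groups were far apart, with a log2 difference of -1.197 (95% interval -1.41 to -0.98, adjusted p = 2.2e-04). CFB (ENSG00000243649, chromosome 6 from 31945650 to 31952084) encodes factor B, the protease subunit of the alternative pathway that acts on C3. It was at 18.9, 20.4 and 20.5 CPM with S100A9 and 13.4, 10.2 and 12.4 CPM with S100A8/S100A9, and its log2 difference was -0.72 (95% interval -0.92 to -0.52, adjusted p = 1.6e-04). CFB overlaps the complement gene C2 on the same strand in GENCODE, and with limma on log2(FPKM + 1) it differed by -0.42 (adjusted p = 0.66), while the other 4 genes passed that test too. FPKM is the deposited level per kilobase of gene, scaled to the size of the library. On that scale, which allows genes to be compared, the S100A9 and S100A8/S100A9 means were 66.7 and 6.07 for LCN2, 34.2 and 15.1 for C3 and 8.67 and 6.31 for CFB.

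SOD2 had the smallest p of all genes. It encodes the manganese superoxide dismutase of mitochondria and is a classic NF-kB target, and it is represented by 2 IDs in the table, of which ENSG00000112096, chromosome 6 from 159669057 to 159745186, is described. The levels were 492, 536 and 507 CPM with S100A9 and 276, 299 and 300.3 CPM with S100A8/S100A9. The 3 libraries of each arm lay close together and the arms far apart, with a log2 difference of -0.81 (95% interval -0.89 to -0.73, adjusted p = 3.4e-13). SOD2 overlaps WTAP on the opposite strand, and no source used here says whether counting used strand. The other SOD2 ID was not among the genes that passed, and its level is not given here. Other feedback and survival targets of NF-kB did not pass edgeR's test either. Of 32 tested IDs the SOD2 ID described here alone passed, the list median was -0.07 and 24 lay below 0. The list still leaned to the lower side. By edgeR 9 were lower and 2 higher at an unadjusted p under 0.05, where 7.15% of all genes tested had such a p. In 10 of the 32 the groups were apart with S100A8/S100A9 lower, against 6.53% of all genes tested. SOD2 is counted in both. TNFAIP2, a target whose protein shapes membrane protrusions, differed by -0.23 (SE 0.05, adjusted p = 0.071), and NFKBIZ, which encodes a nuclear cofactor of NF-kB, by -0.20 (SE 0.05, adjusted p = 0.079); both passed with DESeq2. Among the 26 kinases, adaptors and subunits of the NF-kB pathway 0 passed edgeR, DESeq2 or limma, and the median was -0.02. By edgeR 4 of the 26 had an unadjusted p under 0.05, 2 lower and 2 higher. This is a larger share than the 7.15% of all genes tested, on few genes.

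ELF3 (ENSG00000163435, chromosome 1 from 202007945 to 202017188) encodes an epithelial transcription factor of the ETS family. It was at 50.6, 51.2 and 54.5 CPM with S100A9 and 38.6, 35.9 and 35.1 CPM with S100A8/S100A9, with separate groups and a log2 difference of -0.51 (95% interval -0.64 to -0.38, adjusted p = 5.4e-05). It was the only one of 24 tested epithelial defence transcription factors to pass edgeR's test, and the list median was -0.03. An antisense gene, ELF3-AS1, overlaps it.

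Of the genes of cytokine mRNA decay 2 were lower. ZC3H12A encodes Regnase-1, an RNase that cleaves cytokine mRNAs and is itself induced in inflammation, and it was at 13.6, 14.9 and 13.8 CPM with S100A9 and 10.5, 9.28 and 8.69 CPM with S100A8/S100A9. ZC3H12C, which encodes a relative of Regnase-1, was at 72.9, 70.6 and 75.6 CPM with S100A9 and 56.9, 60.5 and 62.5 CPM with S100A8/S100A9. Both pairs of groups were apart, with log2 differences of -0.57 (95% interval -0.78 to -0.36, adjusted p = 0.0070) and -0.28 (95% interval -0.39 to -0.17, adjusted p = 0.013). They were the 2 of 15 tested decay factors that passed, 13 did not, and the median over all 15 was 0.02. ZC3H12A missed the threshold without replicate 2 of S100A9 or replicate 3 of the combined arm, and ZC3H12C without replicate 3 of S100A9 or replicate 1 of the combined arm.

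Iron and redox genes gave small differences beside LCN2 and SOD2. SLC11A2 encodes the iron transporter DMT1, and was at 116, 127 and 120.3 CPM with S100A9 and 106, 104 and 105 CPM with S100A8/S100A9. Its combined-arm libraries were nearly identical and all lower, with a log2 difference of -0.21 (95% interval -0.30 to -0.12, adjusted p = 0.023). In the fit on the 6 libraries alone it did not pass (adjusted p = 0.059). TXN, the gene of the cytosolic disulfide reductase thioredoxin, was at 126, 125 and 126 CPM with S100A9 and 104, 112 and 107 CPM with S100A8/S100A9, a difference of -0.22 (95% interval -0.32 to -0.12, adjusted p = 0.040). Of the 16 tested iron genes LCN2 and SLC11A2 passed, and of 26 antioxidant genes SOD2 and TXN. FTH1, which encodes the ferritin heavy chain, lay lower in each combined-arm library but did not pass, at -0.15 (SE 0.04, adjusted p = 0.26). Metallothioneins and zinc transporters, of interest because calprotectin binds zinc, had 0 of 11 passing edgeR, DESeq2 or limma and a median of -0.04. By edgeR 2 of the 11 had an unadjusted p under 0.05, a larger share than the 7.15% of all genes tested, on few genes. MT2A differed by -0.16 (95% interval -0.27 to -0.05).

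Markers of tubular injury and of progenitor cells differed in both directions. Of 31 tested members PDZK1IP1 and LCN2 were lower, KRT7 and CD24 were higher and 27 did not pass, and the list median was 0.07. PDZK1IP1 (ENSG00000162366, chromosome 1 from 47183593 to 47191044) encodes MAP17, a small membrane protein that binds the scaffold PDZK1 in the proximal tubule. It was at 45.7, 54.8 and 52.6 CPM with S100A9 and 31.8, 32.3 and 29.5 CPM with S100A8/S100A9, with a log2 difference of -0.71 (95% interval -0.85 to -0.58, adjusted p = 3.0e-07), second in p only to SOD2. Its partner PDZK1 differed by 0.17 (95% interval 0.04 to 0.30) and did not pass.

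KRT7 (ENSG00000135480, chromosome 12 from 52232520 to 52252186), a keratin gene of simple epithelia, was at 89.1, 81.2 and 80.6 CPM with S100A9 and 99.4, 103 and 95.2 CPM with S100A8/S100A9. CD24 (ENSG00000272398, chromosome 6 from 106969831 to 106975627), the gene of a surface glycoprotein that marks renal progenitor cells, was at 94.7, 90.2 and 88.4 CPM with S100A9 and 107, 108 and 105 CPM with S100A8/S100A9. In both genes each combined-arm library lay above each S100A9 library, by small amounts: the log2 differences were 0.25 (95% interval 0.15 to 0.34, adjusted p = 0.013) and 0.23 (95% interval 0.14 to 0.32, adjusted p = 0.014). Of 10 tested keratins KRT7 alone passed, and 8 lay above 0. The summed level of the renal epithelium markers, KRT7 among them, was likewise higher, at 2624 to 2794 CPM with S100A8/S100A9 and 2497 to 2588 CPM with S100A9. VIM was the largest part of that sum, with means of 811 and 757 CPM. Of 14 tested markers 10 lay above 0 and 4 below, with CDH1, PAX2 and GGT1 among the lower means. The part of this sum in these results was not tested. KRT7 overlaps KRT86 on the same strand and KRT7-AS on the other, and CD24 has near-identical copies elsewhere in the genome.

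ID2 (ENSG00000115738, chromosome 2 from 8678845 to 8684453) encodes an inhibitor of basic helix-loop-helix factors that BMP and TGF-beta signals regulate. It was at 24.7, 22.8 and 24.4 CPM with S100A9 and 29.7, 31.4 and 28.7 CPM with S100A8/S100A9, with a log2 difference of 0.32 (95% interval 0.18 to 0.46, adjusted p = 0.040), and it did not pass in the fit on the 6 libraries alone (adjusted p = 0.078). Its relative ID1 differed by 0.30 (95% interval 0.12 to 0.48) and did not pass, nor did the other 36 tested members of the ID, BMP and TGF-beta list, whose median was 0.05. EIF5 (ENSG00000100664, chromosome 14 from 103333544 to 103345025), which encodes an initiation factor that acts on start codon recognition, was at 272, 246 and 252 CPM with S100A9 and 307, 291 and 289 CPM with S100A8/S100A9, a difference of 0.20 (95% interval 0.12 to 0.29, adjusted p = 0.029). With limma on log2(FPKM + 1) 0 of the 4 higher genes passed, with adjusted p of 0.40 for KRT7, 0.069 for CD24, 0.33 for EIF5 and 0.33 for ID2. They were also lost more readily than the leading lower genes: none of the 4 passed when replicate 2 or 3 of S100A9, or replicate 1 or 2 of the combined arm, was left out.

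A few genes of the matrix and its receptors were lower by small amounts. COL7A1, which encodes the collagen of anchoring fibrils, was at 146, 157 and 164 CPM with S100A9 and 129, 129 and 126 CPM with S100A8/S100A9. The combined-arm libraries were closely grouped below the others, with a log2 difference of -0.28 (95% interval -0.38 to -0.19, adjusted p = 0.0019). With limma on log2(FPKM + 1) COL7A1 differed by -0.13 and did not pass (adjusted p = 0.77). P4HA2, a subunit gene of the prolyl hydroxylase that modifies collagen, was at 47.6, 56.1 and 56.0 CPM with S100A9 and 43.3, 39.8 and 43.3 CPM with S100A8/S100A9. ADAMTS9, the gene of a secreted protease that cleaves proteoglycans, was at 32.4, 39.9 and 37.2 CPM with S100A9 and 26.2, 24.5 and 23.98 CPM with S100A8/S100A9. ITGA1, which encodes the alpha-1 subunit of a collagen-binding integrin, was at 38.7, 37.9 and 41.5 CPM with S100A9 and 31.0, 29.9 and 33.4 CPM with S100A8/S100A9. These genes differed by -0.34 (SE 0.07, adjusted p = 0.020) for P4HA2, -0.55 (SE 0.08, adjusted p = 7.2e-04) for ADAMTS9 and -0.33 (SE 0.07, adjusted p = 0.028) for ITGA1. Each was the only gene to pass of its list: COL7A1 of 32 matrix and mesenchymal genes (median 0.03), ADAMTS9 of 23 matrix proteases and inhibitors (0.04), ITGA1 of 16 integrin subunits (0.01) and P4HA2 of 36 glycolysis and hypoxia genes (0.02). MMP7, a matrix protease gene of injured tubules, differed by -1.07 (95% interval -1.80 to -0.34) at levels of 1.36 and 0.645 CPM and did not pass (adjusted p = 0.47). ITGA1 shares its locus with PELO, and ADAMTS9 and P4HA2 with antisense genes.

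GDF15, the gene of a secreted stress hormone that p53 and the integrated stress response both induce, was at 166, 177 and 181 CPM with S100A9 and 150.1, 142 and 147 CPM with S100A8/S100A9. Its difference was -0.25 (95% interval -0.36 to -0.15, adjusted p = 0.022), and it was the only one to pass of 30 p53 targets, 26 of which lay below 0 with a median of -0.08, and of 24 integrated stress response genes (median -0.04). MANF, which encodes a secreted factor of the endoplasmic reticulum stress response, was at 29.1, 28.3 and 29.4 CPM with S100A9 and 21.2, 23.3 and 23.9 CPM with S100A8/S100A9, a difference of -0.35 (95% interval -0.49 to -0.20, adjusted p = 0.020). NFE2L1, the gene of the factor that renews proteasomes, was at 336, 376 and 359 CPM with S100A9 and 310.3, 309 and 302 CPM with S100A8/S100A9 and differed by -0.22 (95% interval -0.30 to -0.13, adjusted p = 0.014). SAT1, which encodes the enzyme that acetylates spermidine and spermine, was at 107, 107 and 106 CPM with S100A9 and 92.0, 93.6 and 92.9 CPM with S100A8/S100A9. Both groups were narrow and far apart for their spread, and the difference was -0.21 (95% interval -0.29 to -0.12, adjusted p = 0.027).

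PIM2, NR3C2, CEP43, PFDN6 and ALS2CL belong to none of the lists, and nor do MANF, NFE2L1, SAT1 and EIF5. PIM2, the gene of a survival kinase, was at 12.6, 14.4 and 12.7 CPM with S100A9 and 8.59, 9.75 and 9.63 CPM with S100A8/S100A9. NR3C2, which encodes the mineralocorticoid receptor, was at 18.1, 21.3 and 19.3 CPM with S100A9 and 13.8, 14.5 and 14.9 CPM with S100A8/S100A9. The differences were -0.51 (95% interval -0.74 to -0.28, adjusted p = 0.040) for PIM2 and -0.45 (95% interval -0.63 to -0.26, adjusted p = 0.020) for NR3C2, each with separate groups. CEP43, which encodes a centrosome protein, differed by -0.33 (95% interval -0.45 to -0.21, adjusted p = 0.0071), and PFDN6, the gene of a prefoldin chaperone subunit, by -0.32 (95% interval -0.46 to -0.18, adjusted p = 0.029); the levels of PFDN6 were 30.7, 32.0 and 30.6 CPM with S100A9 and 25.0, 24.9 and 24.8 CPM with S100A8/S100A9. ALS2CL differed by -0.61 (95% interval -0.89 to -0.34, adjusted p = 0.040) and did not pass with DESeq2 (adjusted p = 0.058). With limma on log2(FPKM + 1) neither CEP43, at -0.20 (adjusted p = 0.47), nor ALS2CL, at -0.35 (adjusted p = 0.33), passed.

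**Figure D3:**
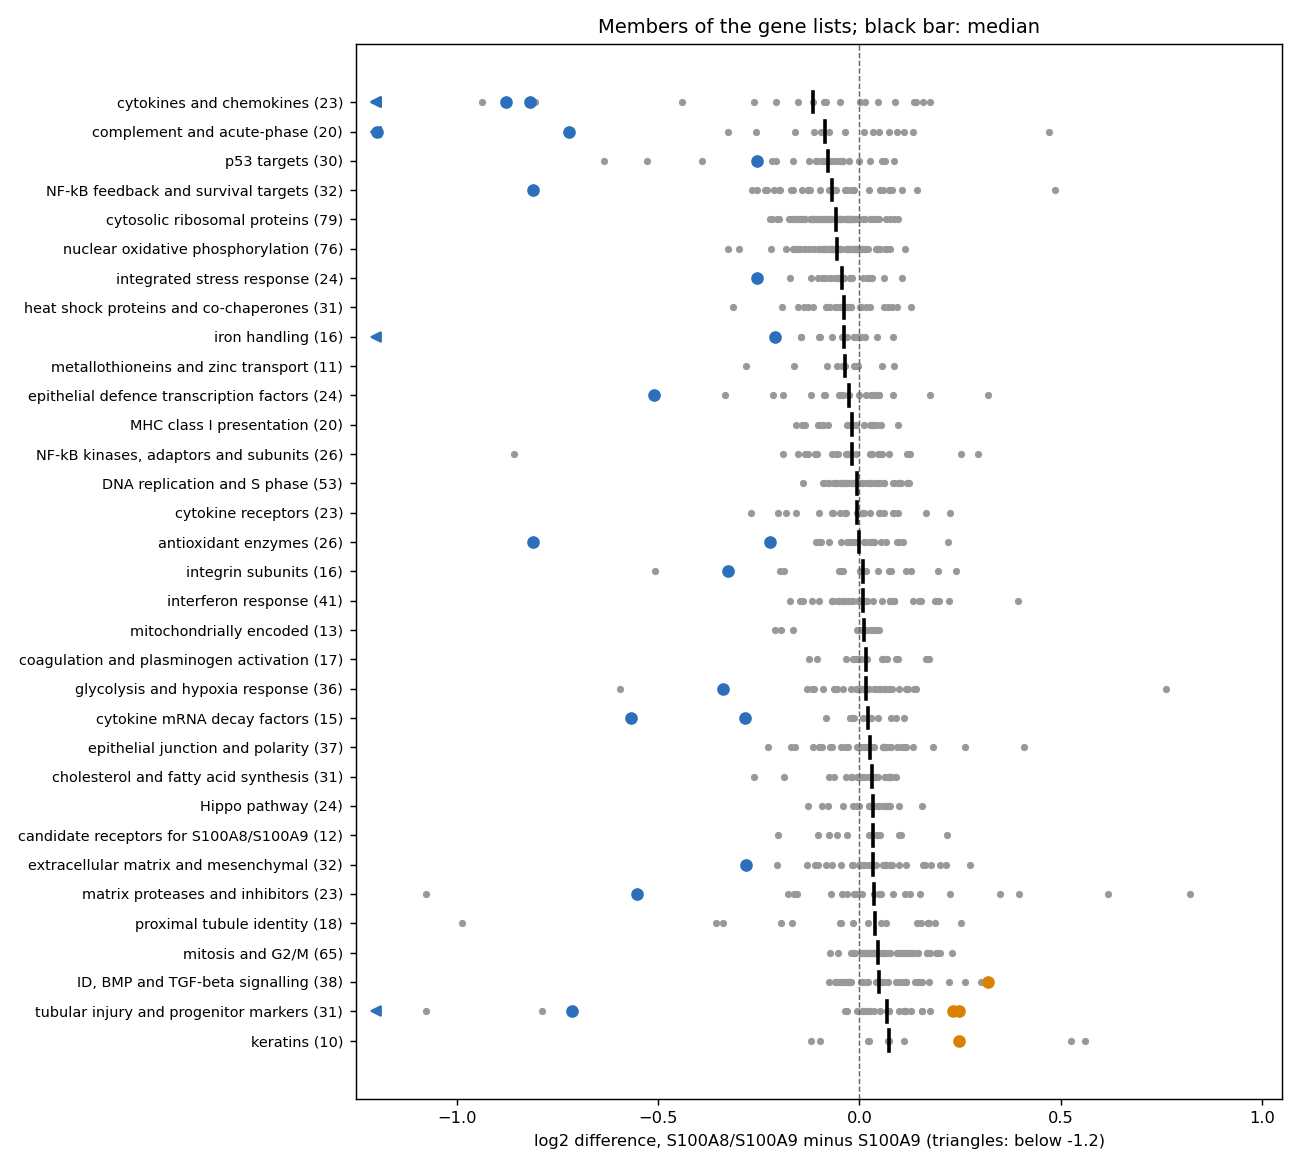
Log2 difference, S100A8/S100A9 minus S100A9, of each tested member of 33 gene lists, with the number of tested IDs in brackets and the list median as a black bar. Blue marks are members that were lower, orange marks members that were higher, grey points members that did not pass; triangles stand for values below -1.2. The cytokine list has the lowest median, -0.11, and its 5 blue marks lie to the left of 0, at -0.82 (CXCL2) and lower. CXCL5, a chemokine gene that did not pass, differed by nearly as much as CXCL2.

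Large sets of housekeeping genes held no gene that passed edgeR's test, and their members leaned to one side by small amounts. Cell division genes (mitosis and G2/M) were above 0 in 60 of 65 cases; their median was 0.05, 17 of those above 0 had an unadjusted p under 0.05, and DESeq2 called 0. Ribosomal protein genes lay below 0 in 67 of 79 cases, with a median of -0.06 and 22 below 0 at an unadjusted p under 0.05, of which RPS12 passed with DESeq2. Nuclear genes of oxidative phosphorylation lay below 0 in 61 of 76 cases (median -0.06, 5 below 0 at an unadjusted p under 0.05, 0 called by DESeq2). Over all genes tested 7.15% had an unadjusted p under 0.05. Genes in these sets vary together, so their members are not separate observations. DNA replication genes (53, median -0.01), interferon response genes (41, 0.01), MHC class I presentation genes (20, -0.02) and cholesterol and fatty acid synthesis genes (31, 0.03) had 0 members passing with edgeR or DESeq2, with 6, 3, 4 and 0 at an unadjusted p under 0.05.

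The receptor genes through which the added proteins are known to act were low and did not differ detectably at this depth. TLR4 was at 2.22, 2.73 and 3.02 CPM with S100A9 and 3.49, 2.99 and 2.78 CPM with S100A8/S100A9, with overlapping groups and a log2 difference of 0.22 (95% interval -0.21 to 0.65). AGER was at 1.87, 3.19 and 2.36 CPM with S100A9 and 3.15, 2.93 and 1.94 CPM with S100A8/S100A9, a difference of 0.10 (95% interval -0.38 to 0.59). LY96, which encodes the TLR4 co-receptor MD-2, was at 5.11 and 4.44 CPM, and CD14 was too low to be tested, with 1 to 6 counts in each of the 6 libraries. Of 12 tested candidate receptor genes 0 passed with edgeR, DESeq2 or limma, and 0 had an unadjusted p under 0.05.

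The 2 arms were next set beside PBS. These comparisons share the S100A9 or the S100A8/S100A9 libraries with the one above, so the values are given side by side as a description. For the 30 lower genes the S100A9 arm differed from PBS by 0.08 to 3.15 on the log2 scale, with a median of 0.42. The S100A8/S100A9 arm differed from PBS by -0.90 to 0.42, with a median of -0.05, and the 95% interval included 0 for 21 of the 30. By edgeR 0 of the 30 passed in that comparison, with 9 at an unadjusted p under 0.05; over all 13512 genes edgeR called 0 (757 at an unadjusted p under 0.05), DESeq2 1 and limma 0. Against the same PBS libraries edgeR called 20 genes with S100A9 (0.148%) and 1 with S100A8 (0.0074%). In CXCL8 the differences from PBS were 1.33 (1.12 to 1.54) with S100A9 and 0.05 (-0.17 to 0.27) with S100A8/S100A9, and in C3 they were 1.08 (0.87 to 1.297) and -0.11 (-0.34 to 0.11). The intervals of the low-count genes were wide, as for CCL20, with -0.90 (-1.86 to 0.07) in the combined arm. A p that misses the threshold does not show that the combined arm and PBS were alike.

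Not every lower gene was at the PBS level in the combined arm. IL6 lay above PBS without passing after adjustment, at 7.71, 9.57 and 6.96 CPM against 6.07, 6.90 and 5.10 CPM in PBS, a difference of 0.42 (0.13 to 0.72). COL7A1 and ALS2CL lay nearer to PBS in the S100A9 arm: COL7A1 was at 149, 141 and 153 CPM in PBS, and the differences from it were 0.08 (-0.02 to 0.17) with S100A9 and -0.20 (-0.30 to -0.11) with S100A8/S100A9. ELF3, CFB and ADAMTS9 lay below PBS in the combined arm, at -0.19 (-0.32 to -0.05), -0.28 (-0.49 to -0.06) and -0.23 (-0.41 to -0.06). The unadjusted interval excluded 0 on the lower side for CEP43, MANF and SAT1 too. Among the higher genes KRT7 was at 97.6, 94.7 and 96.1 CPM in PBS, next to the combined arm, and the same held for ID2, at 29.5, 29.1 and 29.2 CPM. EIF5 was the exception, at 277, 253 and 261 CPM in PBS, nearer to S100A9.

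**Figure D4:**
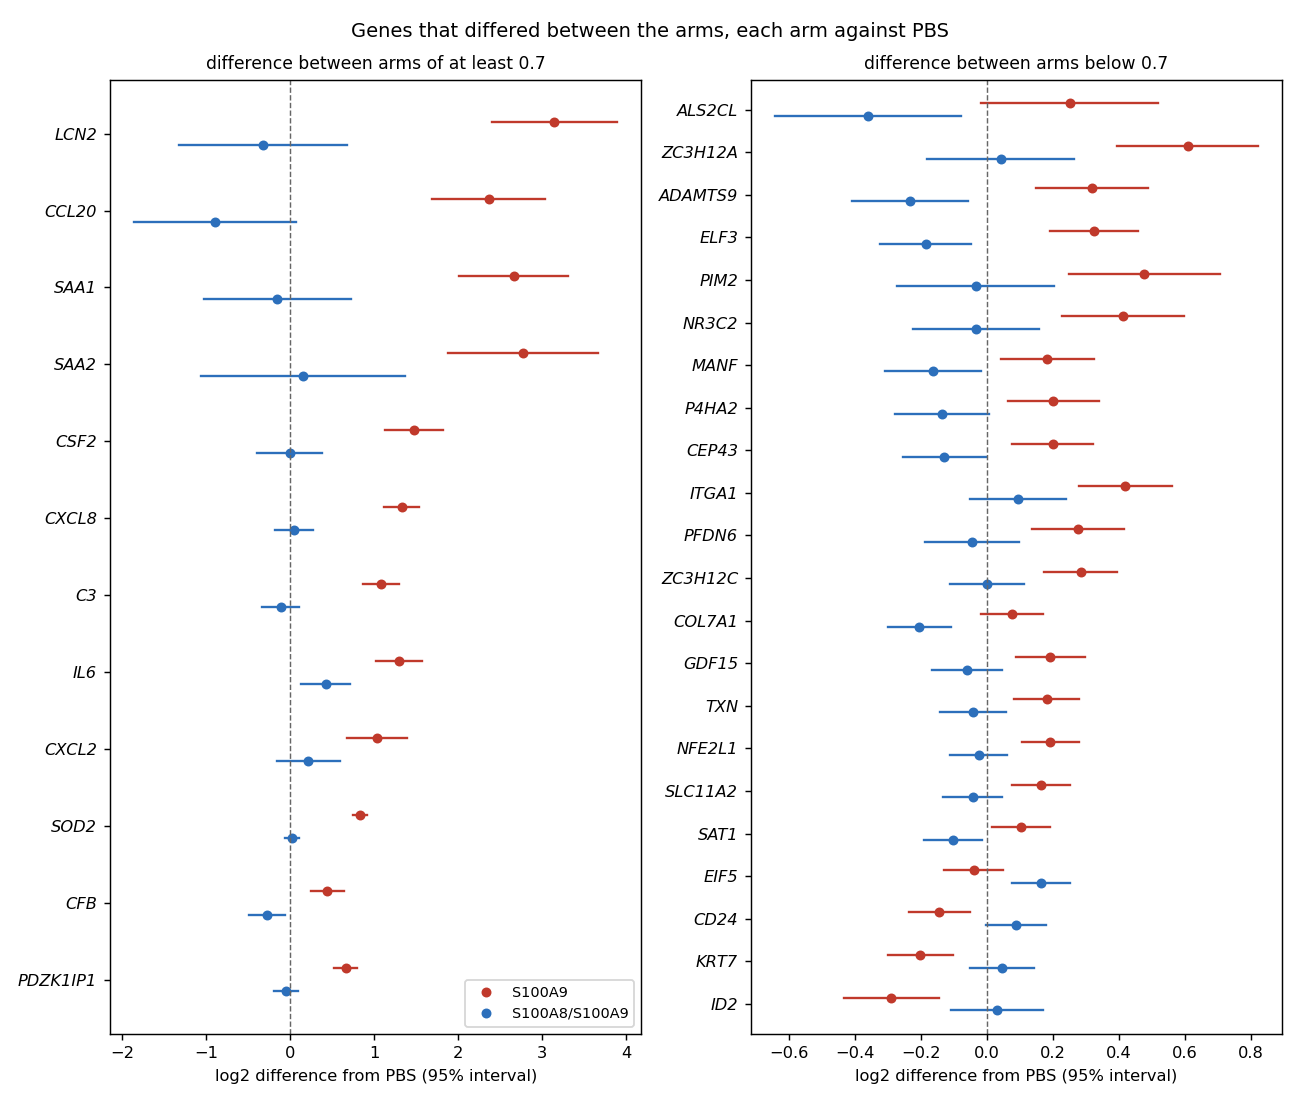
Log2 difference from PBS, with 95% interval, of the 34 genes that differed between the arms, for S100A9 (red) and S100A8/S100A9 (blue); the left panel holds the 12 genes with a difference of at least 0.7 between the arms and the right panel the other 22, on different scales. For LCN2, CXCL8, C3 and SOD2 the blue point lies near 0 and the red point to the right of it, while COL7A1 has its blue point to the left of 0.

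A further test asked whether the difference between the combined preparation and S100A9 was the same as that between S100A8 and PBS. It subtracts the second log2 difference from the first in the same fit. The amount of S100A9 in the combined preparation is not given. The values therefore cannot tell the presence of S100A8 apart from a different amount of S100A9. Of 13512 genes 8 passed (0.0592%), and all 8 were negative: SOD2, PDZK1IP1, CCL20, CXCL8, CSF2, SAA1, C3 and IL6. All 8 were already among the 30 lower genes. The test shares the S100A9 and S100A8/S100A9 libraries with the main comparison, so their common sign is not separate support for it. For SOD2, levels were 295, 287 and 293 CPM with S100A8 and 294, 286 and 284 CPM with PBS, which overlap, and the difference of differences was -0.83 (-0.95 to -0.71). For IL6 they were 8.39, 7.79 and 6.97 CPM and 6.07, 6.90 and 5.10 CPM, which place S100A8 slightly above PBS, and the value was -1.24 (-1.63 to -0.84). LCN2 had a value of -3.33 (-4.62 to -2.04) and did not pass (adjusted p = 0.31). The 4 genes higher in the combined arm had values of 0.26 (KRT7), 0.23 (CD24), 0.11 (EIF5) and 0.26 (ID2), and 0 of them passed.

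How firmly each gene stands was read from fits that left out 1 of the 6 libraries. In all 6 such fits 12 genes passed: SOD2, PDZK1IP1, CCL20, CXCL8, CSF2, SAA1, ELF3, CFB, C3, IL6, ADAMTS9 and SAA2. COL7A1 and LCN2 passed in 5, ZC3H12A, CEP43 and ZC3H12C in 4, and KRT7, CD24 and CXCL2 in 2. The other 14, all with log2 differences between -0.61 and 0.32, passed in 1 or in 0 of the 6. Of the S100A9 libraries, leaving out replicate 2 brought the count of genes passing from 34 to 16 and leaving out replicate 3 to 15. Of the S100A8/S100A9 libraries, leaving out replicate 1 gave 14 genes and replicate 3 gave 19. In these 4 fits every gene that passed was among the 34; leaving out replicate 1 of S100A9 gave 31 genes, 26 of them among the 34, and replicate 2 of S100A8/S100A9 gave 24, with 19 among them. With limma on log2(FPKM + 1) the 13 genes that passed were SOD2, PDZK1IP1, CCL20, CXCL8, CSF2, SAA1, SAA2, ELF3, C3, IL6, LCN2, MANF and PFDN6. On that scale CCL20 differed by -1.67 and SAA2 by -1.253, values that the pseudocount of 1 makes smaller at such low levels.

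**Figure D5:**
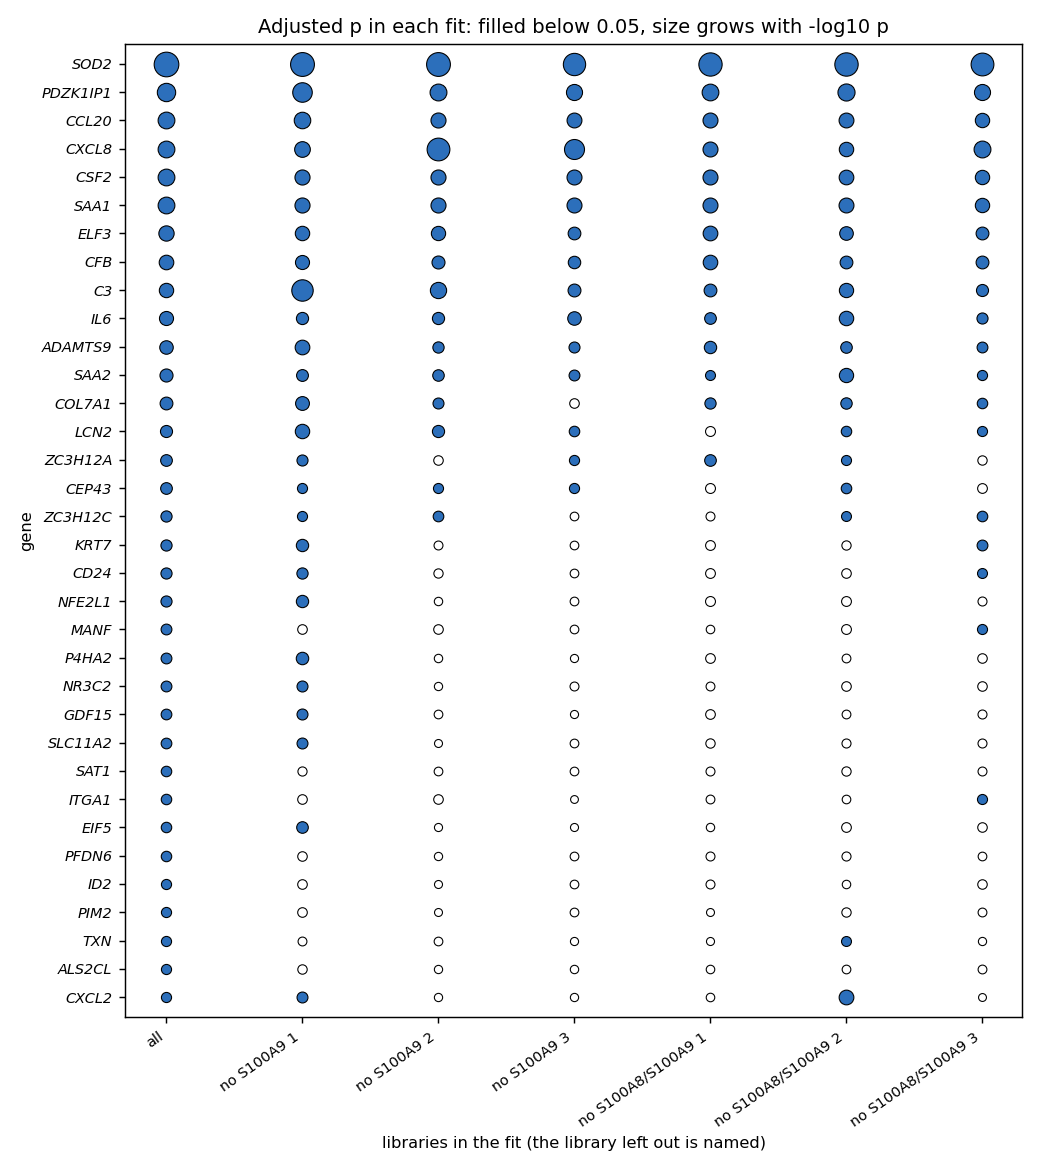
Adjusted p of the 34 genes (rows) in the fit with all libraries and in 6 fits that each leave out 1 library (columns); circles are filled where the adjusted p is below 0.05 and grow with -log10 of it. The upper 12 genes are filled in every column, while SAT1, PFDN6, ID2, PIM2 and ALS2CL are filled in the first column alone.

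The threshold itself separated genes of similar size. CXCL2 (adjusted p = 0.040), ALS2CL (0.040) and TXN (0.040) were the last to pass. Just outside on the lower side were TMEM38B, the gene of an intracellular cation channel, at -0.24 (SE 0.05, adjusted p = 0.052), and CPD, the gene of a carboxypeptidase, at -0.17 (SE 0.04, adjusted p = 0.071), along with TNFAIP2 and CXCL5. Just outside on the higher side were SPOCK1, which encodes a matrix proteoglycan, at 0.19 (SE 0.05, adjusted p = 0.086), and F2R, which encodes the thrombin receptor PAR1, at 0.17 (SE 0.04, adjusted p = 0.095).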

How the data were processed

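Per the labels, RNA of HK-2 cells was selected with oligo(dT) and sequenced on an Illumina instrument. The authors deposited expected counts and FPKM values (scaled to gene length and library size) for 20286 human Ensembl IDs; 12.0% of the counts were not whole. Mouse builds (GRCm38, mm10) are listed per the submitters' processing notes, although the IDs are human; aligner, counter and annotation are not stated in what was used here. IDs were named through a gene name table (19717) or GENCODE release 29 (521), and 48 had no name.

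Counts were rounded and fitted with edgeR 4.0.16 in R 4.3.3: filterByExpr (minimum count 10), TMM scaling, a robust quasi-likelihood fit of all 12 libraries with 4 group coefficients and 8 residual degrees of freedom, two-sided tests and Benjamini-Hochberg adjustment. The common biological coefficient of variation was 4.65%. Standard errors and 95% intervals come from the quasi-likelihood statistic. Levels are TMM-normalised CPM. DESeq2 1.42.0 and limma 3.58.1 on log2(FPKM + 1) were alternatives. The procedure was also run on simulated counts, whose outcome is not given here and is not used as support. Libraries of a group differed by more than counting noise.

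Genes named are S100A8, S100A9, TLR4, AGER, all that passed, up to 3 of smallest p per list and 5 per direction outside the threshold, and all that passed the difference of differences. The genes, the 33 lists and 4 marker lists were chosen with earlier results of these data known.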

Additional observations from a re-analysis of the deposited data

Results flagged for a closer look

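In 8 genes the difference between S100A8/S100A9 and S100A9 was not the same as that between S100A8 and PBS, by a test of the difference itself (edgeR's quasi-likelihood test, 3 libraries per group, adjusted over 13512 genes). The difference of differences was -0.83 for SOD2 (adjusted p = 8.4e-10), -0.73 for PDZK1IP1 (3.2e-04), -3.50 for CCL20 (0.0032) and -1.26 for CXCL8 (0.0014). It was -1.72 for CSF2 (0.0014), -2.98 for SAA1 (0.014), -1.16 for C3 (0.013) and -1.24 for IL6 (0.0023). The test shares the S100A9 and S100A8/S100A9 libraries with the main comparison, where all 8 were already lower. The amount of S100A9 in the combined preparation is not given, so the presence of S100A8 and a different amount of S100A9 cannot be told apart here.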

How the results depend on the processing

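The count of 34 genes (30 lower, 4 higher) was 34 with size factors of DESeq2, 42 without the filter on low counts, 40 with the DESeq2 test, 33 on the 6 libraries compared (30 shared; LCN2, CXCL2, SLC11A2 and ID2 were lost), 29 without the robust option and 33 with SAA1 and SAA2 summed. With limma on log2(FPKM + 1) it was 13 (13 lower, 0 higher), and with a minimum change of 2-fold 2 (2 lower, 0 higher; CCL20 and SAA1), where the difference of differences called 0. With the replicate number as a block it was 71 (49 lower, 22 higher), all 34 among them, and 13 in place of 8 for the difference of differences. The labels do not say what the number marks; same-numbered libraries of both arms correlated at 0.05, 0.07 and -0.01 in their deviations from the group means, and numbers 1 and 2 but not 3 matched their own number best. Leaving out 1 of the 6 libraries gave 14 to 31 genes in all, 14 to 27 lower and 0 to 4 higher, and 1 of the other 6 gave 30 to 39 in all; leaving out 1 of 12 gave 6 to 10 for the difference of differences. The cause of these changes was not tested. Of the values of single genes under these settings 652 kept direction and side of the threshold, 175 lost the threshold, 21 gained it and 2 turned: AGER, at 0.10, was at -0.055 without S100A9 replicate 1 and -0.042 without S100A8/S100A9 replicate 1, and at up to 0.34 without S100A9 replicate 2. The kappaB motif was in 14 lower genes also in the whole window of 300 bases, where 17.4% of tested genes held it. CCL20, SAA1 and SAA2 rest on 3 to 63 counts in each of the 6 libraries and have intervals over 1 log2 unit wide, as has LCN2 at higher counts.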

Other observations

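The largest log2 differences of the comparison did not pass the test, and they belonged to genes whose deposited counts were at 0 in some libraries of a group and far above 0 in others. They were picked after their values were seen. CXCR5, the gene of a chemokine receptor of B cells, had 60.2, 65.45 and 48.44 counts with S100A9 and 0, 0 and 0.9 with S100A8/S100A9 (edgeR adjusted p = 0.59). It had 0, 0 and 99.58 counts with S100A8 and 54.1, 77.74 and 98.14 with PBS, so that libraries of a single group, S100A8, lay at both ends. BLOC1S5-TXNDC5, a read-through gene, had 0 counts in all 3 libraries with S100A9, and 0, 25.96 and 46.33 with S100A8/S100A9.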
